A study of Homo sapiens with 14 samples.

Results

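Sublibrary H5 of a pooled CRISPR interference screen was compared between its brightest and its dimmest sorted cells. All guides of H5 were taken, 12710 of the 91463 guides in the 6 sublibraries with complete tables for both sorted fractions, and 250 of them were non-targeting controls. The other 12460 guides addressed 2292 genes through 2493 targets, a target being a gene symbol together with a transcription start label (P1 for the main start, P2 for another, P1P2 where guides were designed for both together). H5 holds the part of the human library devoted to gene expression, and its symbols fit that content: 449 genes were named ZNF, and the sublibrary also carried Mediator, spliceosome, mRNA decay, chromatin and ribosome assembly factors.

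The cells were HEK293 FLP-In cells, an embryonic kidney line with a site for recombinase-mediated insertion. Both sorted fractions carried the same transgenes: SSF-DOR-APEX2, a tagged delta opioid receptor joined to the peroxidase APEX2, and dCas9-KRAB-BFP, the repressor that a guide brings to a start site. Clonal populations had been expanded after sorting for BFP, so the line stands for selected clones with a transgenic receptor. Cells received virus at a multiplicity of about 0.2, were kept in 0.75 µg/ml puromycin for 3 days from 2 days after transduction, and were assayed after 8 days of growth. Both fractions had been stimulated with the opioid peptide agonist DADLE at 10 µM for 90 minutes, and no unstimulated fraction was part of the comparison. Intact cells were given 100 µM Amplex UltraRed and 50 µM hydrogen peroxide for 1 minute, and the top and bottom quartiles of fluorescence were collected. Each fraction was 1 library. There was no replicate sort, so the p-values below compare these libraries through the spread between guides and not repeated sorts.

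Delta opioid receptor is a G protein-coupled receptor that is internalised after agonist binding and then sent largely to lysosomes. In the intact cell assay APEX2 turns Amplex UltraRed into a fluorescent product, so the signal of a cell rests on the amount of peroxidase-tagged receptor and on the supply of peroxide and dye. A guide that is more frequent in the top library repressed a gene in cells that were brighter, and a guide more frequent in the bottom library repressed a gene in cells that were dimmer. Genes of H5 act on the making, processing and decay of RNA, on chromatin and on ribosome production, and many are essential in proliferating human cells.

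CRISPR interference acts at promoters, and RefSeq sequence was matched for 1866 of the 2292 genes. The 250 bases before the annotated start are shown for the 3 called targets that were most enriched in the top library and 3 that were among the most enriched in the bottom library and had a RefSeq entry, in GRCh38.p14 and 5′ to 3′ on the strand of the gene. Capitals mark matches on either strand to the E-box word CACGTG, the ETS word CCGGAAGT, the YY1 word AAGATGGCG, the cyclic AMP response element TGACGTCA, the CCAAT box and the TATA word TATAAA. None of these words holds another.
RBM12, chr20:35664901-35665150, minus strand: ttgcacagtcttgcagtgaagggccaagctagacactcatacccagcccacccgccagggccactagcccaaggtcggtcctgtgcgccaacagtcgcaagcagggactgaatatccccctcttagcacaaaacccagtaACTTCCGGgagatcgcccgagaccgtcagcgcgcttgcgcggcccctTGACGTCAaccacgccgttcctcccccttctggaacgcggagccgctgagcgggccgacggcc
CNOT9 (RQCD1 in the guide names), chr2:218568589-218568838, plus strand: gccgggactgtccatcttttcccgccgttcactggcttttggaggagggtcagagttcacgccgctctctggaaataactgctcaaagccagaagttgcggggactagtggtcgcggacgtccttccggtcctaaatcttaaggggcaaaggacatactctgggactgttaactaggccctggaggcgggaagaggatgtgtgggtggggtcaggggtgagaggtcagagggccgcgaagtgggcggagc
SRSF1, chr17:58007247-58007496, minus strand: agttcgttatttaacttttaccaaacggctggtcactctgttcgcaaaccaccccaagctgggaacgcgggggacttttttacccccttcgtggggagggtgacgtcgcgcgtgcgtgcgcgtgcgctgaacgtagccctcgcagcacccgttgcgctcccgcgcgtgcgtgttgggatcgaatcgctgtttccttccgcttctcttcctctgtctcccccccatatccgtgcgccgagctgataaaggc
NOL6, chr9:33473925-33474174, minus strand: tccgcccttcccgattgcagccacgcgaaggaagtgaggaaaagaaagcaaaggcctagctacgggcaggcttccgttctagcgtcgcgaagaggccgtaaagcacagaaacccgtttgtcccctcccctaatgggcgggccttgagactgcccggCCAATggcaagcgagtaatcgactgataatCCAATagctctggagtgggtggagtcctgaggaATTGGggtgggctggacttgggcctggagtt
RRP9, chr3:51941905-51942154, minus strand: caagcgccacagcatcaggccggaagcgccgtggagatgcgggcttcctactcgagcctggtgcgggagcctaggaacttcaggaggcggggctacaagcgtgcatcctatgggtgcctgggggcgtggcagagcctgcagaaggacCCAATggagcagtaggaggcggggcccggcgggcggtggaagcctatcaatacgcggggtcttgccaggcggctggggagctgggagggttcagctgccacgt
YTHDC1, chr4:68350091-68350340, minus strand: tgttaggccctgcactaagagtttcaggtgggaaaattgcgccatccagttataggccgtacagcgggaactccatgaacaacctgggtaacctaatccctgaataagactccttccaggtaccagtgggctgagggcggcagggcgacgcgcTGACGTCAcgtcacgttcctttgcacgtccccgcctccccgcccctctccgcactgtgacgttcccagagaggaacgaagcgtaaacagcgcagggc

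The RBM12 window held an ETS match and a cyclic AMP response element, YTHDC1 held a cyclic AMP response element, NOL6 and RRP9 held CCAAT, and the windows of CNOT9 and SRSF1 held none of these words. GC content was 64% for RBM12, 59.2% for CNOT9, 60% for SRSF1, 58% for NOL6, 67.2% for RRP9 and 58.8% for YTHDC1. TGACGTCA occurred in 1.77% of 27305 RefSeq windows and in 3.22% of 1861 windows of H5 genes, CCGGAAGT in 3.64% and 7.47%, and CCAAT in 33.0% and 38.9%. TATAAA was in 11.1% of all windows and 6.99% of H5 windows. Among genes called in the comparison below, CCGGAAGT was in 9 of 78 windows of genes higher in the top library and 6 of 51 of those higher in the bottom library. A match is a description of the letters and not a site of binding.

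The bottom library held 21976931 counts and the top library 18112304, and every H5 guide was listed in both. The median guide had 1553.5 counts in the bottom and 1285.5 in the top library. The measure of each guide was its log2 ratio of library shares, top over bottom, with 1 count added and with the median non-targeting guide set to 0. The 250 non-targeting guides had an SD of 0.23 (from -0.69 to 1.32), where counting error alone would give 0.06, and the 12456 targeting guides that entered had a median of 0.02 and an SD of 0.35. Past 3 non-targeting SD, a log2 ratio of 0.69 either way, lay 373 targeting guides on the top side and 222 on the bottom side, 4.78% in all, against 3 and 1 non-targeting guides.

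Of 2493 targets, 148 were called, which is 5.94%: 89 (3.57%) were enriched in the top library and 59 (2.37%) were depleted from it. A target was called where the mean of its guides (5 for 2484 targets, 4 for the other 9) differed from draws of as many guides out of its own and the non-targeting ones, at a two-sided permutation p adjusted to at most 0.05 over 18116 targets of the 6 sublibraries. In the 6 sublibraries together 3.92% of targets were called. The called means ran from 0.40 to 1.76 in the top direction and from -0.39 to -1.36 in the bottom direction, and the median of all H5 targets was 0.02. All guides lay above 0 for 60 of the 89, and all below 0 for 34 of the 59. The lowest permutation p that 100000 draws can give, 1e-05, was reached by 46 H5 targets, and it corresponds to an adjusted p of 0.000713.

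RBM12, an RNA-binding protein, had the highest called mean in H5. Its 5 guides had 633, 1186, 761, 327 and 819 counts in the bottom and 1485, 2361, 2731, 1367 and 1834 in the top library. Each of the 5 was higher in the top library although that library was smaller. The mean log2 ratio was 1.76 ± 0.47 (SD, n = 5 guides), 3.39-fold in share, with a permutation adjusted p of 0.000713. Of these guides 3 also stand under CPNE1 in sublibrary H4, with the same position and strand, so repression of RBM12 and of CPNE1 cannot be told apart by them.

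RQCD1, named CNOT9 in RefSeq, is a subunit of the CCR4-NOT deadenylase, which shortens the poly(A) tails of mRNA. Its guides split: 447, 1003 and 794 counts in the bottom library stood against 3356, 3942 and 4594 in the top library, while the other two had 2624 and 2271 against 2302 and 2064. The mean was 1.72 ± 1.480 (SD, n = 5 guides; permutation adjusted p = 0.000713) with single log2 ratios from 0.12 to 3.21, and the call was lost with edgeR's quasi-likelihood test. All 5 guides lay on the same strand with positions within 32 bases of the first. CNOT3, another subunit, had 0.45 ± 0.63 and was called in the top direction, and its call was lost under 5 alternatives. One of its guides was at 1.498 and the other 4 had a mean of 0.19. In all 2 of the 4 CCR4-NOT members of H5 were called (50%, against 5.94% of all H5 targets), with a list median of 0.29.

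ZFP36L2 and ZFP36L1 are zinc finger proteins that bind AU-rich elements in mRNA and recruit deadenylases. ZFP36L2 guides had 540, 521, 559, 936 and 1280 counts in the bottom and 1981, 467, 1108, 1719 and 2468 in the top library, so 4 guides were clearly enriched and 1 was near the controls. Its mean was 1.21 ± 0.72 (SD, n = 5 guides; permutation adjusted p = 0.000713). At the P1 start of ZFP36L1 all 5 guides were positive, from 0.31 to 0.77, with a mean of 0.53 ± 0.19, whereas its P2 guides had 0.10 ± 0.08 and were not called. ZFP36L1 and ZFP36L2 were the called members among 10 mRNA decay factors (20%), whose median was 0.21, and the ZFP36L1 call was lost without the guide farthest from 0; DCP1A, a decapping cofactor, had 0.30 and did not pass. None of 15 RNA exosome genes was called by the permutation test, where 5.94% of all H5 targets were called, and their median was 0.10.

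Both cap-binding subunits and SRRT were called in the top direction. NCBP2, the small cap-binding subunit, had guides at 2021, 489, 862, 1884 and 287 counts in the bottom and 1781, 1600, 1725, 2803 and 1101 in the top library, a mean of 1.31 ± 0.86. SRRT (ARS2), which links the cap-binding complex to downstream machineries, had 409, 239, 166, 919 and 2695 against 1043, 553, 1193, 834 and 2347, a mean of 1.32 ± 1.25. Its first 3 guides were between 1.51 and 3.14 and the last 2 at 0.16 and 0.10, and the SRRT call was lost with edgeR. NCBP1, the large cap-binding subunit, had 0.44 ± 0.31 with all 5 guides above 0 (permutation adjusted p = 0.0283), and its call was lost under 4 alternatives, among them edgeR and the mean without the guide farthest from 0. PHAX, the snRNA export adaptor that binds the cap-binding complex, had 0.26 ± 0.22 at P1 and was not called. ZC3H18, a partner of the capped RNA complex outside the fixed lists, had 0.62 ± 0.57. THOC2, a scaffold of the THO export complex, was called in the bottom direction at -0.76 ± 0.52, a call lost with edgeR. The export list as a whole had 9 members, 3 called in the top and 1 in the bottom direction (44.4%), and a median of 0.08.

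Ribosome assembly factors gave the largest group of calls, and the calls divided by subunit. Of 56 members, 10 were called in the top direction and 19 in the bottom direction, 51.8% where 5.94% of all H5 targets were called. Ribosomal subunits are built in the nucleolus from a common precursor RNA: the small subunit processome folds and cuts the 18S side, while other factors build the 60S subunit. Members were assigned to a subunit from known function after their values had been seen, so the split carries no test. Of 22 small subunit factors 14 were called in the bottom direction and 0 in the top, and of 22 large subunit factors 10 were called in the top direction and 0 in the bottom. The medians were -0.54 and 0.32. All 22 small subunit means were below 0, and 20 of 22 large subunit means were above 0; the exceptions were MAK16 at -0.46 and EBNA1BP2 at -0.08.

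NOL6, a processome component, had the lowest mean in H5. Its guides had 730, 1004, 2722, 1319 and 358 counts in the bottom and 593, 481, 606, 289 and 57 in the top library. The first guide equalled the controls with a log2 ratio of 0.00, and the other 4 lay between -0.76 and -2.33. The mean was -1.36 ± 0.96 (SD, n = 5 guides; permutation adjusted p = 0.000713), and this call was lost with edgeR. RRP9, a U3 snoRNP protein, had 772, 2101, 2220, 1465 and 2840 against 603, 934, 514, 325 and 774 counts, a mean of -1.23 ± 0.77. MPHOSPH10, also of the U3 particle, had 2686, 1906, 1412, 898 and 91 against 974, 539, 670, 586 and 14, a mean of -1.21 ± 0.76. Every RRP9 and MPHOSPH10 guide was below 0. The MPHOSPH10 guide with 91 and 14 counts had -2.31, the farthest from 0 of its 5. It passed the count filter only through its bottom count, so the MPHOSPH10 mean rests in part on a guide with few counts.

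UTP6 had -1.07 ± 0.65, UTP14A -1.02 ± 0.63, ESF1 -1.01 ± 0.90 at P1 and DDX47, a DEAD-box helicase, -0.88 ± 0.91. These processome factors were followed by WDR36 at -0.76, UTP20 at -0.69, NAT10, the acetyltransferase of 18S RNA, at -0.60 and RRP12 at -0.59. UTP3 (-0.49), RRP7A (-0.46) and NOL10 (-0.41) completed the called members. WDR46, CIRH1A, KRR1, EMG1, BYSL, NOP9, UTP18 and RRP36 lay between -0.37 and -0.03 and did not pass. Over the 22 small subunit factors 91 of 110 guides were below 0 (82.7%, against 45.6% of all H5 targeting guides), and 46 were past 3 non-targeting SD on that side and 2 on the other. UTP3 had the widest guides among them, from -1.63 to 1.499.

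On the large subunit side RSL1D1 had 0.72 ± 0.30 at P1, with all 5 guides between 0.40 and 1.16. FTSJ3, a methyltransferase of pre-rRNA, had guides at 1697, 434, 911, 555 and 879 counts in the bottom and 1496, 355, 1508, 1045 and 1577 in the top library, a mean of 0.71 ± 0.59, where 3 guides were high and 2 near 0. RPF2, which brings the 5S particle, had 0.68 ± 0.69 and WDR12, of the PeBoW complex, 0.68 ± 0.65. The nucleolar GTPases GNL2 and GNL3 had 0.66 ± 0.39 and 0.59 ± 0.57, the helicase DDX27 0.59 ± 0.36, the export adaptor NMD3 0.54 ± 0.24, RRS1 0.44 ± 0.65 and RPF1 0.40 ± 0.33. Over the 22 factors 85 of 110 guides were above 0 and 31 past 3 non-targeting SD on the top side, with 5 past it on the bottom side. BOP1, the partner of WDR12, had 0.09 ± 0.30 and did not pass.

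Guide abundance, the summed counts of both libraries relative to the non-targeting median on the log2 scale, was low in both groups. Its median was -0.55 for small subunit factors, with 21 of 22 below 0, and -0.51 for large subunit factors, with 19 of 22 below 0. Guides of both groups were thus rarer than the controls while their sorted directions differed, and the part of abundance in the log2 ratios was not tested. Fewer cells of a kind, fewer guide copies per cell and a lower share of these guides in the virus pool cannot be told apart in these counts. No library from before the sort was part of the comparison.

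Further assembly factors in H5 that no fixed list held were looked up after their values were known, so their directions carry no test of the split by subunit. Of 11 such large subunit factors 6 were called, all in the top direction, where 3.57% of all H5 targets had a top call. They were PAK1IP1 (0.66), RBM28 (0.59), MYBBP1A (0.49), CEBPZ (0.49), SURF6 (0.47) and DDX24 (0.47). NOC2L, NSA2, MRTO4, MKI67IP and GRWD1 did not pass, at -0.14 to 0.28. Of 6 small subunit factors DNTTIP2 was called in the bottom direction at -0.84 ± 0.74, where 2.37% of all H5 targets had a bottom call. The other 5 lay between -0.34 and -0.08. Among the snoRNP proteins FBL, the methyltransferase of box C/D particles, had -0.93 ± 0.46 with all 5 guides below 0, while its partner NOP56 had 0.02. Of the box H/ACA pseudouridylation proteins NOP10 (-0.62), DKC1 (-0.51) and GAR1 (-0.41) were called in the bottom direction and the assembly factor NAF1 had 0.09. The 5 factors of RNA polymerase I transcription, TAF1A, TAF1B, TAF1C, RRN3 and UBTF, lay between -0.23 and 0.07 and none was called by the permutation test. TWISTNB, a subunit of RNA polymerase I itself, had -0.74 ± 0.55 and was called in the bottom direction, a call lost with the exact rank sum test and with edgeR. POLR1E, another subunit of that polymerase, had 0.32 ± 0.25 with 4 of 5 guides above 0 and was not called. The calls of ESF1, DDX47 and DNTTIP2 were also lost with both of these tests.

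Members of the same list in the other compared sublibraries were sorted separately and were assigned to a subunit from known function. In either direction, the share of all targets called was 2.58% in H1, 5.98% in H2, 7.52% in H3, 1.27% in H6 and 0.56% in H7. All 16 small subunit factors there were below 0, with 9 called in the bottom and 0 in the top direction and a median of -0.58. RIOK2, a late assembly kinase in H1, had -1.74 and RCL1 in H3 -0.98. Of 13 large subunit factors 10 were above 0, 3 were called in the top direction (RSL24D1 at 1.08, DDX54 at 0.40 and GNL3L at 0.40) and DDX18 was called in the bottom direction at -0.39. Their median was 0.05, below the 0.32 of H5. That difference between sublibraries was not tested, nor was the split by subunit. NOP58, the partner of FBL and NOP56 in box C/D particles, had -0.79 in H3. NCL and NPM1 in H2 were set apart as having several roles. NCL had 0.89 and was called in the top direction, and NPM1 had -0.21 and was not called.

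Splicing factors were called in both directions. SRSF1, a serine and arginine rich regulator of splice site choice, had guides at 620, 524, 314, 1510 and 552 counts in the bottom and 1658, 1401, 1657, 1318 and 1417 in the top library. Of the 5 guides 4 lay between 1.66 and 2.70 on the log2 scale and 1 at 0.11, giving a mean of 1.58 ± 0.93 (SD, n = 5 guides; permutation adjusted p = 0.000713). SRRM2, a scaffold of nuclear speckles, had 0.88 ± 0.53, SRSF7 0.54 ± 0.58 and SRSF10 -0.44 ± 0.22. The 14 SR factors had 3 top calls and 1 bottom call (28.6%) and a median of 0.00. The calls of SRSF7 and SRSF10 were lost without the guide farthest from 0. DBR1, the lariat debranching enzyme, had 854, 1531, 927, 1920 and 1051 against 997, 2412, 2163, 3195 and 2042 counts, a mean of 1.06 ± 0.37, and DDX41, a helicase linked to the spliceosome, 1.12 ± 0.71. RBM8A, the Y14 protein of the exon junction complex, had 1.02 ± 0.71 at a guide abundance of -2.40, and its call was lost with the exact rank sum test and edgeR. A guide of RBM8A with 32 counts in the bottom and 71 in the top library passed the count filter only through its top count. RBM8A was the called member of 5 exon junction complex genes (20%), whose median was 0.19.

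Within the core of the spliceosome, 3 of 20 U1, U2 and Sm factors were called in each direction (30% in all, against 5.94% of H5) and the median was 0.01. RBM17 (0.93 ± 0.34), SF3A2 at P1 (0.67 ± 0.74) and U2AF1 (0.53 ± 0.49) were higher in the top library. SNRPB2, the U2 snRNP protein B″, had the lowest mean of these 20. Its guides had 257, 1721, 320, 638 and 1389 counts in the bottom and 106, 578, 183, 345 and 289 in the top library, a mean of -1.05 ± 0.59. SF1, the branchpoint binding protein, had -0.61 ± 0.25. Outside the lists PRPF39, of the U1 snRNP, had -0.58 and PQBP1 -0.65, both called in the bottom direction. SF3A2 guides at P1 were the rarest of any called target, with an abundance of -3.02. EFTUD2 (0.73 ± 0.23) and PRPF6 (0.47 ± 0.36), GTPase and scaffold of the tri-snRNP, were called among 18 later splicing factors (11.1%), the PRPF6 call being lost without the guide farthest from 0 and with edgeR. GEMIN5, which delivers snRNAs to the SMN complex, had -0.58 ± 0.10 with 5 guides between -0.71 and -0.47. It was the called member of 11 SMN and snRNP assembly genes (9.09%), whose median was 0.03.

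The LSM proteins form rings on RNA, LSM1 with LSM2 to LSM7 in cytoplasmic decay and LSM2 to LSM8 on U6 snRNA. Of 7 members 4 were called in the top direction, 57.1% where 3.57% of all H5 targets had a top call: LSM2 (0.88 ± 0.30), LSM7 (0.87 ± 0.35), LSM5 at P1 (0.65 ± 0.65) and LSM4 (0.46 ± 0.43). LSM2 guides had 450, 460, 373, 146 and 548 counts in the bottom and 488, 687, 544, 246 and 1031 in the top library, each in the top direction. The called LSM genes had abundances between -1.76 and -0.83. LSM1, the subunit particular to the cytoplasmic ring by textbook knowledge, had -0.01, and the U7 proteins LSM10 and LSM11 had 0.34 and 0.04; none of these 3 passed. The calls of LSM4 and LSM5 were lost with the exact rank sum test and with edgeR.

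A few factors of the m6A mark and of mRNA 3′ end formation were called in the bottom direction. YTHDC1, the nuclear reader of m6A, had 1203, 1132, 517, 704 and 3571 counts in the bottom and 341, 403, 248, 296 and 936 in the top library, so all 5 guides fell. Its mean was -1.20 ± 0.37 (SD, n = 5 guides; permutation adjusted p = 0.000713). ZC3H13, which anchors the methyltransferase in the nucleus, had -0.50 ± 0.30 with 5 guides below 0. The ZC3H13 call was lost without the guide farthest from 0 and with edgeR. These were the called members of 8 (25%), whose median was -0.10, with 3 above 0; METTL3, the catalytic subunit of the methyltransferase, had 0.02 and was not called. The cleavage and polyadenylation factors CPSF3, the endonuclease, CPSF2 and CSTF1 had -0.67 ± 0.81, -0.58 ± 0.65 and -0.47 ± 0.48, the called members of 10 (30%), and all 3 of these calls were lost without the guide farthest from 0. The list median was -0.08 with 4 above 0, among them CPSF7 (0.36 ± 0.11) and CPSF6 (0.27 ± 0.42), subunits of cleavage factor I, which were not called. ELOF1 (-0.75), an elongation factor, and LEO1 (-0.54), of the PAF1 complex, were also higher in the bottom library, while NELFCD, of the pausing factor NELF, had 0.51 ± 0.41. The calls of LEO1 and NELFCD were lost without the guide farthest from 0. LEO1 and NELFCD were the called members of 13 transcription elongation genes (15.4%, against 5.94% of all H5 targets), whose median was -0.08.

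Mediator joins transcription factors to RNA polymerase II. Of 25 core subunits in H5, 6 were called in the top direction and 0 in the bottom direction, 24% where 3.57% of all H5 targets had a top call. Of these means 21 were above 0 and the median was 0.18. MED23 guides had 74, 853, 962, 35 and 795 counts in the bottom and 204, 1511, 1382, 64 and 1267 in the top library, a mean of 1.17 ± 0.35. The MED23 guide with 35 and 64 counts passed the count filter only through its top count. The mean thus rests in part on a guide with few counts. MED11, MED30, MED28, MED17 and MED15 lay between 0.40 and 0.50, and the calls of MED11 and MED30 were lost without the guide farthest from 0 and with edgeR. The calls of MED28, MED17 and MED15 were not followed one by one through the alternatives. Their permutation adjusted p was 0.0229, 0.0469 and 0.0495, the last 2 close to the threshold. The guides of Mediator core subunits were rarer than the non-targeting guides, with a median abundance of -0.94, and those of MED23 were at -1.95. The 4 kinase module members in H5 had a median of -0.02 and none was called. Of 27 general transcription factors, the TFIIA subunits GTF2A2 (0.77 ± 0.67) and GTF2A1 (0.69 ± 0.41) and the polymerase III factor BRF1 (0.45 ± 0.57) had a top call, and TAF13, of TFIID, a bottom call (-0.58 ± 0.67), 14.8% of the list. The calls of GTF2A2, BRF1 and TAF13 were lost with the exact rank sum test and with edgeR. GTF2I and DRAP1, outside the lists, had -0.69 and -0.59.

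MAFG and BACH1, partners that bind antioxidant response elements and repress genes of heme and oxidant defence, were both called in the bottom direction. MAFG guides had 2438, 3952, 5745, 3634 and 2853 counts in the bottom and 897, 2034, 1311, 980 and 1359 in the top library. Its mean was -1.19 ± 0.51 (SD, n = 5 guides; permutation adjusted p = 0.000713). BACH1 guides had 2612, 2830, 2673, 1832 and 3205 against 874, 1569, 1462, 819 and 2000, a mean of -0.72 ± 0.35. Every guide of both genes was below 0. Unlike the assembly factors these guides were abundant, at 0.67 for MAFG and 0.34 for BACH1. They were the called members of 9 stress and lysosome transcription factors (22.2%), whose median was -0.01.

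RFC3 and RFC2 are subunits of the clamp loader of DNA replication. RFC3 had 620, 125, 256, 699 and 659 counts in the bottom and 1619, 299, 427, 1085 and 1511 in the top library, a mean of 1.34 ± 0.33 in which no guide was below 0.94. RFC2 had 0.86 ± 0.68, and its call was lost with edgeR. RFC3 and RFC2 were the called members of 7 DNA replication, cohesin and condensin genes (28.6%, against 5.94% of all H5 targets). The median of these 7 was 0.08, with 3 below 0. TRMT5, a tRNA methyltransferase, had 767, 915, 1252, 1801 and 980 against 2471, 3188, 1306, 2223 and 1234 counts, a mean of 1.14 ± 0.84 led by 2 guides that lie 4 bases apart, and its call was lost with edgeR. Among 10 tRNA synthesis and maturation genes QARS (0.82 ± 0.83) and ELP4 (0.60 ± 0.68) had top calls, and the RNase P subunits RPP40 (-0.61 ± 0.66) and POP5 (-0.48 ± 0.32) had bottom calls, 40% of the list. All 4 of these calls were lost with edgeR, and those of ELP4, RPP40 and POP5 also without the guide farthest from 0. ELP5, outside the list and of the same Elongator complex as ELP4, had 0.52.

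Members of chromatin complexes were called in both directions. CXXC1, the CpG-binding subunit of the SET1 COMPASS complexes, had 0.80 ± 0.43, L3MBTL2, of a Polycomb complex, 0.55 ± 0.28 and SMARCD1, of SWI/SNF, 0.42 ± 0.31, all higher in the top library. The last 2 calls were lost without the guide farthest from 0 and with edgeR. Each was the only called member of its list: 1 of 5 COMPASS and MLL genes (20%), 1 of 10 Polycomb genes (10%) and 1 of 8 SWI/SNF genes (12.5%). In all of H5 5.94% of targets were called. The list medians were 0.07, 0.03 and 0.07. Of 11 INO80, SRCAP and TIP60 members, NFRKB (-0.57 ± 0.76), EPC1 (-0.50 ± 0.82) and INO80 (-0.42 ± 0.43) were higher in the bottom, 27.3% where 2.37% of all H5 targets had a bottom call, and all 3 calls were lost without the guide farthest from 0 and with edgeR. EPC1 rested on 1 guide at -1.94, and its other 4 had a mean of -0.13. ZNF638, of silencing by the HUSH complex, had -0.39, a call lost under 4 alternatives. It was the called member of 6 HUSH, SETDB1 and heterochromatin genes (16.7%), whose median was 0.02. None of 16 histone deacetylase complex genes, 9 SAGA and ATAC genes, 7 DNA methylation genes or 9 histone chaperones and acetyltransferases was called by the permutation test. At the 5.94% share of all H5 targets, lists of this size would hold few calls. Their medians were -0.02, 0.21, 0.03 and -0.07 in that order, and 7 of the 9 SAGA and ATAC means were above 0. Of 44 histone genes HIST2H3A (0.83 ± 0.29) and HIST2H2AA4 (0.49 ± 0.42) were higher in the top library (4.55%), the second of these calls being lost with edgeR. Guides to histone genes can match near-identical copies, so these are uncertain as to the copy.

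Gene families picked by symbol, mostly of sequence-specific DNA-binding factors, made up 726 main-start targets and held 8 calls in the top and 1 in the bottom direction, 1.24% against 8.83% of the other 1540 main-start targets. The share in all of H5 was 5.94%. The top calls include ZFP36L2 and ZFP36L1, picked by their ZFP symbol, which bind mRNA and are described with mRNA decay above. Of 443 ZNF targets 6 were called in the top direction, ZNF574 (0.93 ± 0.56), ZNF281 (0.90 ± 0.40), ZNF507 (0.85 ± 0.15), ZNF131 (0.64 ± 0.46), ZNF503 (0.55 ± 0.25) and ZNF318 (0.41 ± 0.12), and ZNF638 in the bottom direction. ZNF507 guides lay between 0.71 and 1.11 on the log2 scale, with 576, 1336, 1056, 1143 and 1058 counts in the bottom and 803, 1851, 1569, 1517 and 1845 in the top library. None of 105 homeobox, 39 forkhead and SOX, 58 lineage factor and 7 nuclear receptor targets passed, nor of 23 signal-dependent factors, among them CREM at 0.18 and SRF at -0.16. The medians of these families lay between 0.01 and 0.04, near the 0.02 of all H5 targets.

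In the remaining lists calls were near the background share or absent, apart from splicing regulators. Of 18 hnRNPs and splicing regulators FUBP3 (0.65 ± 0.31) had a top call, and HNRNPM at P1 (-0.54 ± 0.19) and RBM10 (-0.40 ± 0.25) had bottom calls, 16.7% against 5.94% of H5. The calls of HNRNPM and RBM10 were lost without the guide farthest from 0. DDX17, a helicase of microRNA processing, was the called member of 12 microRNA pathway genes (8.33%) at 0.43 ± 0.32, a call lost under 4 alternatives. No call fell among 29 housekeeping promoter factors (median 0.05), 7 MYC, E2F, p53 and cell cycle factors (0.06), 8 translation factors (0.11), 2 genes of the Integrator list (-0.14) or 2 of nuclear transport (-0.10). USF2, an E-box factor, was farthest from 0 among the promoter factors at 0.38, with TFAP4 at -0.37 and NFYB, a subunit of the CCAAT-binding factor, at 0.36.

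Genes with more than 1 start label let the same gene be compared at separate promoters. Of 165 genes with both P1 and P2, 12 were called at P1 (7.27%) and 3 at P2 (1.82%), where 5.94% of all H5 targets were called. The number called at both was 0, and at such shares few would be. In 11 of the 12 genes called at P1 the P2 mean was within 0.2 of 0. The other was RBM4, at 0.53 and 0.38. Some RBM4 guides at P1 also stand under RBM14 in H5 (target mean 0.31, not called) and under RBM14-RBM4 in H7 (0.59, called in the top direction). Repression of RBM4 at P1 and of RBM14 thus cannot be told apart by those guides. ESF1 had -1.01 at P1 and 0.04 at P2, HNRNPM -0.54 and 0.04, ZNF574 0.93 and 0.06, and RSL1D1 0.72 and 0.14. SRSF6 differed in sign, with 0.32 ± 0.16 at P1, not called, and -0.49 ± 0.56 at P2, called in the bottom direction. TBX18 at P2 was called in the top direction at 1.04 ± 1.36. Of its 5 guides, 2 were at 2.10 and 2.86 and the rest between -0.15 and 0.35. The guide at 2.86 had 21 counts in the bottom and 128 in the top library. It passed the count filter only through its top count, so the TBX18 mean and call rest in part on a guide with few counts. The differences between starts were not tested.

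Guides shared between sublibraries gave a measure in a separate sort. In 129 cases an H5 guide had the same position and strand as a guide of another compared sublibrary, by gene symbols on 1 chromosome. Across these guides, which share the cell line and the letters of the guide but neither virus pool nor sort, Pearson's r was 0.78 and Spearman's rho 0.50, and the median absolute difference was 0.16. Without the 12 guides past 3 non-targeting SD in H5, r was 0.44 over 117 guides; all 12 had the same sign in the other sort. Of the 5 guides of C17orf49 (BACC1 in RefSeq) at P1, 3 had 1.94, 1.33 and 1.93 in H5 and 2.37, 1.82 and 2.03 in H3, where they stand under RNASEK, so the target mean of 1.54 ± 0.77 cannot be told apart from RNASEK. All 5 guides of NOP10 also stand under NUTM1 in H2, where the target mean was -0.51, against -0.62 in H5. ZC3H10 shares all 5 guides with ESYT1 in H3: they had -0.31, 0.11, -0.75, -0.91 and -0.74 in H5 and -0.28, 0.04, -0.81, -0.73 and -0.50 in H3.

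Neighbouring genes were searched among all guide names, those of H4 included. A guide for some other gene lay at most 1000 bases away in 22.3% of called targets (33 of 148), where 12.8% of uncalled targets had one. Where the neighbour's own target could be compared it was mostly uncalled: USP37, next to RQCD1, had 0.03, PARP3, next to RRP9, -0.20, and SLC38A6, next to TRMT5, 0.06. MPHOSPH10 lies 412 bases from MCEE, ESF1 34 from NDUFAF5 and WDR92 (-0.43) 408 from PNO1, itself a small subunit assembly factor; these 3 neighbours belong to H4, which was not compared. Guides for both genes of such a pair can repress both.

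Called targets were more often rare in the sorted cells. The median abundance was -0.45 for targets higher in the top, -0.38 for those higher in the bottom and -0.16 for targets not called. Abundance was under -1 for 20 of 89, 13 of 59 and 135 of 2345 targets, which is 22.5%, 22.03% and 5.76%. Within a target the guide farthest in the direction of the mean was the least abundant of the 5 in 23.6% of targets higher in the top and 18.6% of those higher in the bottom library. In targets not called it was so in 32.6%. The part of abundance in the calls was not tested.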

How the data were processed

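Guides were counted in 14 libraries of a pooled screen, 1 per sublibrary and sorted quartile, and the H5 pair is described here. The authors deposited raw read counts, a whole number for each guide name. The submitters' processing notes name Bowtie; its version and the genome build of guide positions were not given in the sources used here. DNA had been amplified in 27 PCR cycles without molecular identifiers, so counts are not independent molecules. H4 was left out of the comparisons because its top table ended after 35 guides; its guide names served to find neighbours. 

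Guides with at least 50 counts in either library entered (4 of H5 did not), and targets needed 3 guides. Log2 ratios with a pseudocount of 1 were centred on non-targeting guides, and each target mean was tested with 100000 two-sided permutation draws and Benjamini-Hochberg adjustment over 18116 targets. Python 3.11.15, NumPy 2.4.6, SciPy 1.17.1 and edgeR 4.0.16 were used. The tests were also run on simulated H5 counts, with normal noise of the non-targeting SD and adjustment over H5 alone. That setting differs from the one behind the calls, and its results are not used here. SDs are over guides of 1 target, which share the target and are not replicates of a sort.

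Named were the 12 highest and 12 lowest main-start targets called with at least 4 guides of which at least 80% agreed in sign, up to 3 members of each of the 47 gene lists farthest from 0, all called members where a list had at most 5, and RBM12 and RQCD1; other names were chosen after their values were seen. The lists for ribosomal proteins and mitochondrial gene expression had 0 members in H5. The members, lists and this rule were chosen with earlier results of these data known. Alternatives covered the pseudocount, count filter, centring, scaling, guide summary, reference guides, test and adjustment. Some items that the naming rule covers are not reported here.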

Additional observations from a re-analysis of the deposited data

How the results depend on the processing

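Of the 148 called H5 targets, 147 or 148 kept their call with a pseudocount of 10 or 0.5, when centred on all guides, with TMM scaling and with at least 50 counts in both libraries; the last of these and the setting without close neighbours were chosen after seeing the data. Counts moved by more than 1.5 times in 4 settings. Without the guide farthest from 0 there were 39 top and 25 bottom calls, and 64 of the 148 kept their call. edgeR's quasi-likelihood test, with guide as block over targets of 5 guides, called 33 and 21, and 52 of the 148 kept their call. Without non-targeting guides outside 3 SD there were 156 and 95, and with at least 300 counts in either library 136 in the top direction and 88 in the bottom. Calls also changed in settings whose counts moved less. Of the 148, 89 kept their call with the exact rank sum test, 125 with the median over guides and 122 with the mean of the 3 farthest guides. Small subunit factors gave 4 to 17 calls in the bottom direction and 0 in the top over all 17 alternatives, and large subunit factors 2 to 12 in the top direction; MAK16 was called in the bottom direction in 3 alternatives (the mean of the 3 farthest guides, adjustment over H5 alone, and the trimmed reference). The spread of targeting guides was 0.22 by the scaled median absolute deviation, against an SD of 0.35. No named gene that passed in either setting changed sign, and 32 of 76 named and called genes passed in every alternative that gave a value; with edgeR 41 named calls were lost and with the exact rank sum test 26. Centring on all guides raised the bottom count to 73 and took the share of top calls from 60.1% to 54.9%. Counting error alone would give an SD of 0.06, against the 0.23 among non-targeting guides. That figure takes counts as independent molecules, which they are not. The part of depth in the spread was not tested, and a second sort was not analysed here. Top and bottom counts were paired by guide, and no pairing of repeated sorts was possible because each fraction was 1 library.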

Other observations

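One guide of TEF, a transcription factor of the PAR bZIP family, had 1 count in the bottom and 2300 in the top library, a log2 ratio of 10.47, while its other 4 guides at P1 had a mean of 0.07. The TEF target mean was therefore 2.15, above that of RBM12, and it did not pass (permutation adjusted p = 0.11). In 14 targets a mean farther than 0.4 from 0 went with a mean of the remaining guides within 1 non-targeting SD, and 5 of these were called: ARID3A, CNOT3, EPC1, UTP3 and WDR92. POLR3E, a subunit of RNA polymerase III, had 1 guide at 2.19 and a mean of 0.14 for the others, and AGO1, an Argonaute protein, 1 guide at 2.21 and -0.04 for the others; neither passed.

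Several called genes belonged to no fixed list. CIZ1, a nuclear matrix protein, had 0.87 ± 0.25, FGD1, an exchange factor for Cdc42, 0.77 ± 0.16, NARFL, of cytosolic iron-sulphur assembly, 0.82 ± 0.60, SCAF8, which binds the polymerase II tail, 0.74 ± 0.41, RBMX 0.74 ± 0.39 and KIAA0922 0.76 ± 0.63, each with 5 of 5 guides above 0. SLBP, the histone mRNA stem-loop binding protein, had 0.58 ± 0.43, and DEPDC5, a subunit of the GATOR1 complex that restrains mTORC1, 0.63 ± 0.50. RNMT, which methylates the mRNA cap, had 0.40 ± 0.34. NEMF, of ribosome-associated quality control, had 0.50 ± 0.30.

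E-box matches were in 5 of 19 promoter windows of small subunit factors and 1 of 16 of large subunit factors, where 8.38% of H5 windows had one; the split was made after values were seen and was not tested. The guide of DDX43 that is shared with OOEP in H7 had -0.78 in H5 and -0.90 in H7, and 1 guide of SEBOX shared with VTN in H1 had 0.72 and 1.96.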
